A study of Arabidopsis thaliana with 18 samples.

Results

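The 26S proteasome subunit genes were followed through the early development of the embryo of Arabidopsis thaliana, the thale cress. The set was chosen by gene identifier and holds 34 of the 27564 genes in the expression table, 23 for the 20S core and 11 for the regulatory particle that caps it. All 34 passed the filter on low values, which 18338 genes passed. The remaining 22 annotated subunit genes, mostly paralogues and further subunits of the regulatory particle, were read beside them.

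The 26S proteasome is the ATP-driven protease that destroys proteins tagged with ubiquitin. Its core is a barrel whose outer alpha rings guard the entrance and whose inner beta rings hold the cutting sites, while the regulatory particle recognises, unfolds and feeds in the substrate. In Arabidopsis many subunits are encoded by a pair of paralogous genes, and the degradation of auxin response repressors by the proteasome is part of how the early embryo is patterned.

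Embryos were dissected by hand from plants kept at 22 °C under 16 h of light and 8 h of dark, with no treatment or mutation named in the labels. There were 18 libraries, 3 from each of 6 stages, which run as 2/4-cell, 8-cell, 16-cell, 32-cell, globular, then heart. Messenger RNA was caught on poly(A) beads, and cDNA was amplified with a kit for very small inputs. Values are in TPM, each transcript's length-corrected share of its library, so a lower share because fewer cells express a gene and a lower share because each cell holds less of its RNA cannot be told apart.

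Some libraries stood apart. The 5 embryo markers summed to between 404 and 996 TPM in every library. The 8 seed coat markers, genes of the maternal tissue around the embryo, summed to 832, 427 and 179.6 TPM in the 2/4-cell libraries, 148 TPM in 32-cell replicate 2 and at most 35.2 TPM elsewhere, and one of them, TT10, was at 0 or under 0.2 TPM in all libraries. The 7 endosperm markers reached 38.6 TPM in 2/4-cell replicate 3 and at most 1.48 TPM elsewhere, with MINI3 at 0 in all 2/4-cell libraries. In library weights estimated from how well each library fitted its stage, 16-cell replicate 3 had 0.266 and the 2/4-cell libraries 0.291 to 0.329, against up to 5.53 for a globular library. What part these features have in any change measured from the 2/4-cell stage was not tested, and heart against 8-cell is therefore given beside heart against 2/4-cell.

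The 34 members were abundant. Their means over 18 libraries lay between the 88.1 and the 97.8 percentile of the tested genes. PAC1 (AT3G22110), which encodes alpha3, had the highest mean, 338 TPM, with single libraries from 230.1 to 433 TPM. PBE2 (AT3G26340), a gene for beta5, had the lowest, 73.4 TPM, with single libraries from 32.5 to 99.5 TPM. The lowest of these came from 2/4-cell replicate 3, where the other 2/4-cell libraries had 96.2 and 89.0 TPM.

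Summed, the 34 genes, a part of the 56 annotated subunit genes, took 0.519% to 0.821% of a library. The 2/4-cell libraries averaged 0.583 ± 0.0805%, the 8-cell libraries 0.710 ± 0.0752%, the 16-cell libraries 0.692 ± 0.116%, the 32-cell libraries 0.652 ± 0.0434%, the globular libraries 0.724 ± 0.0455% and the heart libraries 0.723 ± 0.0290% (SD, n = 3 each). The 2/4-cell mean was the lowest, but the libraries of most stages overlapped, and 2/4-cell replicate 1, at 0.673%, lay inside the range of the 32-cell libraries.

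With the paralogues of each subunit added together, the core could be compared with the regulatory particle subunit by subunit. The 14 core subunits, from 24 genes, averaged 288 ± 31.9, 354 ± 29.7, 351 ± 51.4, 324 ± 13.9, 354 ± 14.8 and 348 ± 3.56 TPM per subunit in the order of the stages, the 2/4-cell stage first and the heart stage last (SD, n = 3 each). The 19 subunits of the regulatory particle, from 32 genes, averaged 207 ± 36.5, 251 ± 33.7, 238 ± 42.6, 228 ± 21.8, 251 ± 23.3 and 256 ± 22.1 TPM in the same order. Per subunit the regulatory particle was therefore below the core in every library, at 0.631 to 0.802 of the core level, and the stage means of this ratio spanned 0.675 to 0.734. This did not hold per gene. Over the 34 members alone, with paralogues not summed, the ratio per gene was 0.785 to 1.14, with a heart mean of 1.02.

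Within the core the subunits lay close together. Averaged over the libraries, beta5 was lowest at 223 TPM and alpha5 highest at 514 TPM, a 2.30-fold span. In the regulatory particle the span was 4.52-fold, between the ubiquitin receptor RPN13 at 94.3 TPM and the small lid protein DSS1 at 426 TPM. The scaffold proteins RPN1 and RPN2, the largest in the particle, were also low, at 119 and 113 TPM.

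**Figure D1:**
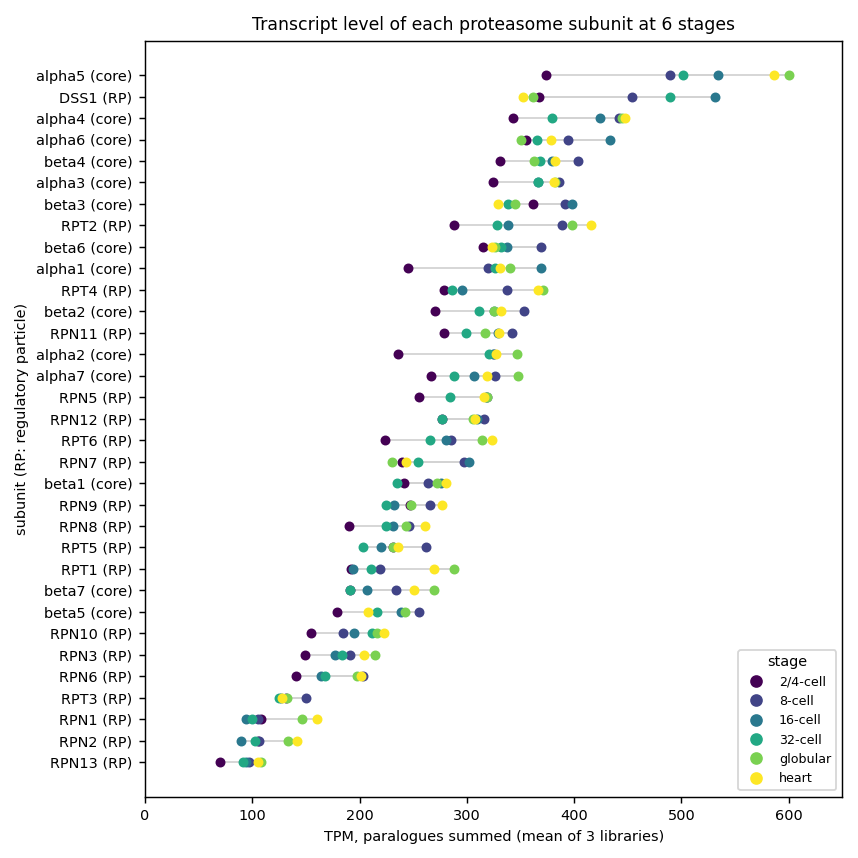
Mean TPM of each proteasome subunit (horizontal axis, paralogues summed, mean of 3 libraries) at 6 stages (colours), with subunits ordered by their overall mean; RP marks the regulatory particle. Core subunits lie between 223 and 514 TPM on average, those of the regulatory particle between 94.3 and 426 TPM, and for alpha5 the 2/4-cell point is 374 TPM and the globular point 600 TPM.

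In TPM as deposited, the genes varied little between stages. Ranges were not computed under other scalings. The F test given below called 8 of 34 members as deposited, where 49.1% of all genes passed. Under median-ratio scaling it called 17, where 43.7% did, so the low variation beside all genes depends on the scaling. The range of a gene's 6 stage means of log2(TPM + 1) was 0.19 to 1.01 over the members, with a median of 0.46, where the median was 1.15 over all 18338 tested genes and 0.60 over the 2187 tested genes at least as abundant as PBE2. RPN12A (AT1G64520), a lid subunit, had the narrowest range, 0.19. The alpha5 gene PAE1 (AT1G53850) was the only member whose range exceeded 1, which 58.3% of all tested genes did. The spread between libraries of a stage had a median SD of 0.17 over the members, 0.42 over all tested genes and 0.24 over the 2187 genes at least as abundant as PBE2. Among the members this median was 0.15 over the core genes, below 0.24, and 0.30 over the regulatory genes, above it.

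**Figure D2:**
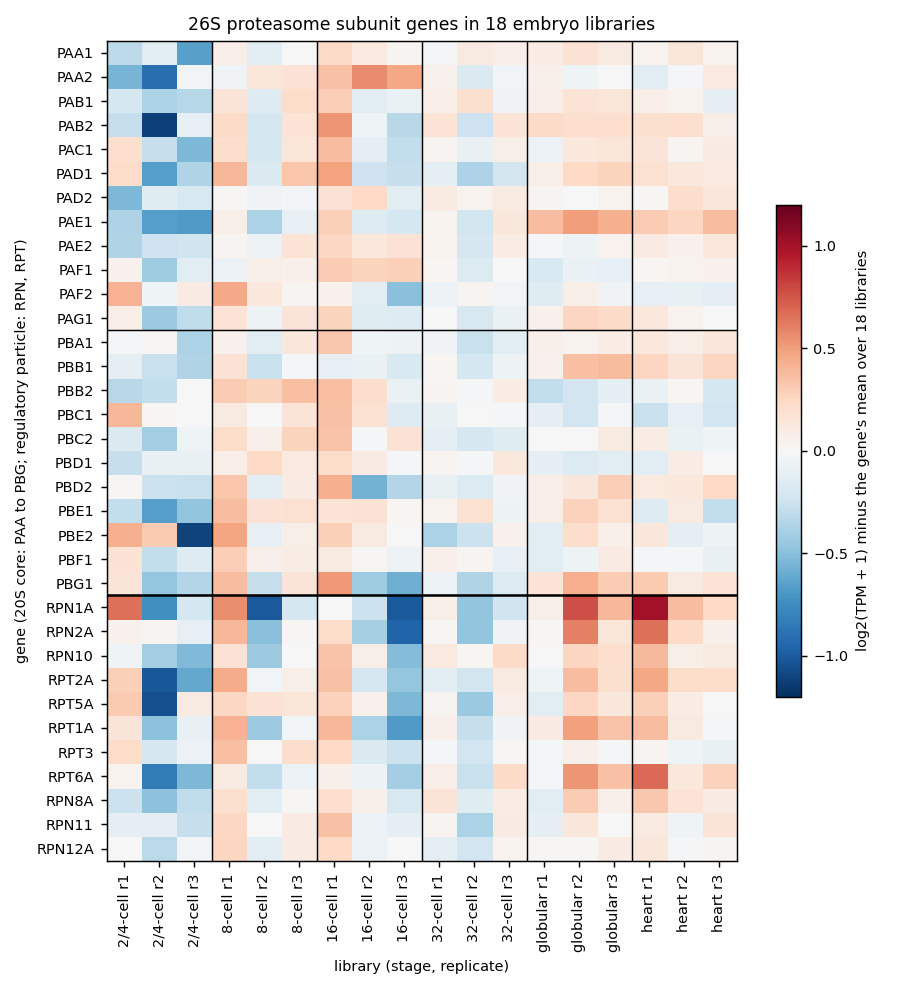
Level of each of the 34 subunit genes (rows) in each of 18 libraries (columns, 3 per stage, r for replicate), as log2(TPM + 1) minus the gene's mean over all libraries. In these TPM as deposited, blue (low) cells are frequent in 2/4-cell replicates 2 and 3 and in 16-cell replicate 3, where 32 of 34 genes lay below their stage mean.

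Which steps of development changed the subunit genes was asked by comparing each stage with the one before it, in a limma fit over all tested genes with Benjamini-Hochberg adjustment and an adjusted p under 0.05 as the threshold. At the first step, 8-cell against 2/4-cell, 3 of 34 members were called, all higher at 8-cell. Among all tested genes 8.77% were called and 3.77% were higher. All 3 belong to the core. The members' median log2 change was 0.29, that of all genes 0.02, and 12 members had an unadjusted p under 0.05. The share of all genes under that unadjusted threshold was not computed, so this count and the later ones at that threshold have no background.

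PBE1 (AT1G13060), the other gene for beta5, which carries the chymotrypsin-like cutting site, had 191, 166 and 167 TPM in 8-cell libraries, against 119.8, 93.2 and 106 TPM in 2/4-cell libraries. It was 1.64-fold higher at 8-cell (log2 change 0.71, SE 0.14, limma adjusted p = 0.00308). Every 8-cell library was above every 2/4-cell library, and the call was kept without each library in turn. It was lost with library weights and with only the compared stages in the fit, with a limma adjusted p of up to 0.0892.

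PBB2 (AT5G40580), a gene for beta2 with the trypsin-like site, had 203, 197 and 211 TPM at 8-cell, against 130.1, 133 and 163 TPM at 2/4-cell. Here too the groups did not overlap, and the log2 change was 0.53 (SE 0.14, limma adjusted p = 0.0228). That call was lost in 4 of 18 fits that left out 1 library, namely 2/4-cell replicate 1 or 2 or 8-cell replicate 1 or 3, and its adjusted p was at most 0.159 over all alternatives. PAA2 (AT2G05840), a gene for alpha1, had 71.3, 81.7 and 83.3 TPM at 8-cell, against 49.8, 38.9 and 71.8 TPM at 2/4-cell. Its groups overlapped at 2/4-cell replicate 3, and its log2 change of 0.59 (SE 0.18) passed narrowly, with a limma adjusted p of 0.0498, and it was lost in 16 of the 18 fits that left out 1 library, with an adjusted p of at most 0.36 over all alternatives. The count of 3 was 1 without 8-cell replicate 1, where 2.08% of all genes were higher, and 1 without 8-cell replicate 3, where 2.48% were. It was 8 with quantile normalization, where 5.12% of all genes were higher, and 5 with no filter on low values, where 2.13% were. It was 0 with library weights, where 1.28% of all genes were higher, and 0 with only the compared stages in the fit, where 0.136% were.

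No member passed at any later step. In 16-cell against 8-cell, 0 of 34 were called where 1.56% of all genes were, with 2 members at an unadjusted p under 0.05. In 32-cell against 16-cell, 0 were called against a background of 6.06%, with 3 members at an unadjusted p under 0.05. Under median-ratio scaling, which shifts the members' median change at this step to -0.29, PAA2, PAF1 and PBC2 were lower at 32-cell, where 1.54% of all genes were.

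In globular against 32-cell, 0 members were called where 1.94% of all genes were, and 3 had an unadjusted p under 0.05. In 11 members every globular library lay above every 32-cell library, which held for 24.8% of all tested genes. With library weights, 5 core genes passed as higher at globular, namely PAD1, PAE1, PAG1, PBB1 and PBG1, where 11.4% of all genes were higher. In heart against globular, 0 members were called where 0.578% of all genes were, and 1 had an unadjusted p under 0.05.

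The whole course was read from heart against 2/4-cell. In TPM as deposited, 12 of 34 members were higher at heart and 0 lower, where 34.5% of all genes were higher and 12.3% lower. The members' median log2 change was 0.32, below the 0.46 of all genes. This picture depended on the scaling. Median-ratio scaling lowers the median change of all genes by more than 0.1, to 0.03, and with it that of the members to -0.16, and it left 1 member higher, PAE1, and 5 lower, PAF2, PBB2, PBC1, PBF1 and RPT3, where 20.3% of all genes were higher and 20.7% lower. Quantile normalization gave 9 members higher and 2 lower, PAF2 and PBC1, against backgrounds of 20.4% and 18.3%. Set against 8-cell in place of 2/4-cell, the heart stage had 1 member higher, PAE1, and 1 lower, PBB2, where 27.7% of all genes were higher and 8.20% lower.

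The 12 calls took 8 of 23 core genes, 1 of 3 base genes, 2 of 5 ATPase genes and 1 of 3 lid genes, shares near the 34.5% of all genes that were higher. The core genes were PAA1, PAA2, PAB2, PAD2, PAE1, PAE2, PBB1 and PBE1, and their log2 changes ran between 0.36 for PBE1 and 0.88 for PAE1.

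**Figure D3:**
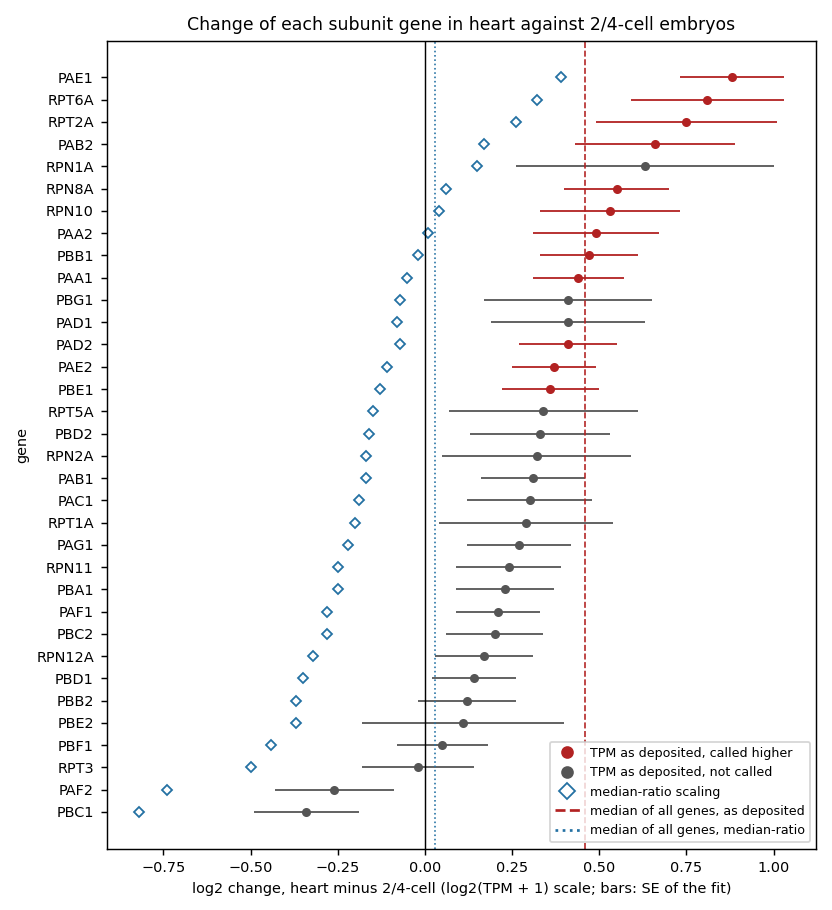
Log2 change of each subunit gene in heart against 2/4-cell embryos, with the SE of the fit as bars (filled circles, TPM as deposited; red where called higher at an adjusted p under 0.05) and the change after median-ratio scaling (open diamonds). Vertical lines mark the median of all tested genes, 0.46 as deposited and 0.03 after scaling; 12 genes are called higher as deposited, while after scaling 5 of those 12, PAA1, PAD2, PAE2, PBB1 and PBE1, turn to values below 0.

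In the alpha rings, PAE1 showed the largest change of all members. It had 341, 331 and 356 TPM in heart libraries, against 213, 174 and 172 TPM in 2/4-cell libraries. The groups lay far apart, the highest 2/4-cell library well below the lowest heart library. The change was 1.84-fold (log2 0.88, SE 0.15, limma adjusted p = 0.000153), and under the alternatives run, leaving out each library included, its adjusted p ranged between 2.83e-05 and 0.0415, the highest with median-ratio scaling and a log2 change of 0.39.

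PAB2 (AT1G79210), a gene for alpha2, had 190.2, 192 and 175 TPM at heart, against 136, 76.2 and 155 TPM at 2/4-cell. The groups did not overlap, but 2/4-cell replicate 2 lay far below the other libraries of its stage. The log2 change was 0.66 (SE 0.23, limma adjusted p = 0.0261), and the call was lost without that library, without heart replicate 1 and without heart replicate 2, with an adjusted p of up to 0.186. PAA2 (alpha1) had 67.2, 73.1 and 80.2 TPM at heart, against 49.8, 38.9 and 71.8 TPM at 2/4-cell. These groups overlapped. Its log2 change was 0.49 (SE 0.18, limma adjusted p = 0.0335), or 0.01 under median-ratio scaling, and the call was lost without 2/4-cell replicate 1 or 2 or heart replicate 2 or 3, with an adjusted p of up to 0.191. The stage with the highest PAA2 mean was in fact 16-cell, at 102 ± 7.54 TPM (SD, n = 3).

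In the beta rings, PBB1 (AT3G27430), the paralogue of PBB2 for beta2, had 182, 169 and 182 TPM at heart, against 140.5, 126 and 118 TPM at 2/4-cell. The groups did not overlap. Its log2 change of 0.47 (SE 0.14, limma adjusted p = 0.0115) kept its call without each library in turn but was -0.02 under median-ratio scaling. The beta genes nearest to no change were PBF1 (AT3G60820) for beta6, PBE2 and PBB2. PBF1 had 327, 329.6 and 312 TPM at heart, against 376, 271 and 299 TPM at 2/4-cell, and its log2 change of 0.05 (SE 0.13) became -0.44 under median-ratio scaling. The heart libraries of PBF1 lay within the spread of the 2/4-cell libraries.

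PBE2 had 78.6, 66.3 and 68.5 TPM at heart, against 96.2, 89.0 and 32.5 TPM at 2/4-cell, with a log2 change of 0.11 (SE 0.29) that reached from -0.38 to 0.39 when single libraries were left out. PBB2 had 155, 166 and 141 TPM at heart, against 130.1, 133 and 163 TPM at 2/4-cell, with a log2 change of 0.12 (SE 0.14), or -0.37 under median-ratio scaling. Both genes had overlapping groups. The members with negative changes as deposited were PBC1 (AT1G21720), a gene for beta3, at -0.34 (limma adjusted p = 0.064), PAF2 (AT1G47250), a gene for alpha6, at -0.26 (limma adjusted p = 0.226), and the ATPase gene RPT3 (AT5G58290) at -0.02. PBC1 passed as lower in 3 of 18 fits that left out 1 library. These were without 2/4-cell replicate 3, 16-cell replicate 1 or 16-cell replicate 3, where 11.0%, 12.5% and 12.9% of all genes were lower.

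Among the ATPases, which form the ring that unfolds substrates, RPT6A (AT5G19990) had 306, 209 and 232 TPM at heart, against 197, 106 and 131 TPM at 2/4-cell. Every heart library was above every 2/4-cell library. The change was 1.75-fold (log2 0.81, SE 0.22, limma adjusted p = 0.00579) and kept its call without each library in turn, but with median-ratio scaling it was 0.32, with an adjusted p of 0.176.

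RPT2A (AT4G29040), needed in Arabidopsis to keep the root meristem, had 349, 293 and 293 TPM at heart, against 308, 124 and 164 TPM at 2/4-cell. The groups overlapped because 2/4-cell replicate 1 stood as high as the heart libraries. Its log2 change was 0.75 (SE 0.26, limma adjusted p = 0.0224), and the call was lost without 2/4-cell replicate 2, 2/4-cell replicate 3 or heart replicate 1, with an adjusted p of up to 0.149. RPT3 changed least of all members as deposited, with 134, 127 and 123 TPM at heart, against 153, 114 and 125 TPM at 2/4-cell. Its heart libraries lay inside the 2/4-cell range, and its log2 change of -0.02 (SE 0.16) became -0.50 under median-ratio scaling, with an adjusted p of 0.00849.

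In the base, RPN10 (AT4G38630), a ubiquitin receptor, had 254, 204 and 209.6 TPM at heart, against 187, 145 and 134 TPM at 2/4-cell. The groups did not overlap. The log2 change was 0.53 (SE 0.20, limma adjusted p = 0.0394), but the call was lost without any one of the 3 heart libraries, 2/4-cell replicate 2 or 2/4-cell replicate 3, with an adjusted p of up to 0.145. The scaffold gene RPN1A (AT2G20580), whose loss is known to arrest Arabidopsis embryos, averaged 113 ± 34.4 TPM at heart and 76.5 ± 38.8 TPM at 2/4-cell (SD, n = 3 each). Its log2 change was 0.63 with an SE of 0.37 and did not pass (limma adjusted p = 0.174).

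In the lid, RPN8A (AT5G05780), which pairs with the deubiquitinating subunit RPN11, had 232, 207 and 198 TPM at heart, against 154, 131 and 149.6 TPM at 2/4-cell. The groups were clearly apart. The log2 change of 0.55 (SE 0.15, limma adjusted p = 0.00646) kept its call without each library in turn, and was 0.06 under median-ratio scaling. RPN11 (AT5G23540) and RPN12A did not pass, with log2 changes of 0.24 and 0.17.

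Of the 12 genes, PAE1, PBB1, RPT6A and RPN8A were the 4 that kept the call without each library in turn, and the count of called members ranged between 7 and 15, where 37.6% to 49.6% of all genes were called. It was 7 without 2/4-cell replicate 2, where 30.5% of all genes were higher, and 7 without heart replicate 2, where 29.8% were. The calls of PAA1 (AT5G35590, log2 change 0.44), PAD2 (AT5G66140, 0.41), PAE2 (AT3G14290, 0.37) and PBE1 (0.36) were each lost in at least 1 of these fits. PAA1 lost its call without 2/4-cell replicate 3 (adjusted p = 0.0791) and PAE2 without heart replicate 3 (adjusted p = 0.0536). PAD2 lost it without 2/4-cell replicate 1, heart replicate 2 or heart replicate 3 (adjusted p of up to 0.0956), and PBE1 without any one of 11 libraries (adjusted p of up to 0.212). A further 19 members had positive changes that did not pass.

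An F test over all 6 stages asked which members varied at any point. It called 8 of 34 (PAA1, PAA2, PAE1, PAE2, PBB1, PBB2, PBE1 and RPT6A), where 49.1% of all tested genes passed. PAE1 had the lowest limma adjusted p, 3.98e-04. With the 2/4-cell libraries left out, which was added after seeing the data, 4 members passed, namely PAA2, PAE1, PAF1 and PBB2, where 45.2% of all genes did. The count was 17 under median-ratio scaling, against a background of 43.7%, and 14 under quantile normalization, against 41.3%. Leaving out single libraries gave 4 to 10, with 4 without globular replicate 2, 4 without globular replicate 3, and 5 without 2/4-cell replicate 3, 8-cell replicate 3, heart replicate 1 or heart replicate 3, where 42.0% to 52.9% of all genes passed over the fits that left out 1 library.

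Whether the embryo changed its use of paralogues was asked with the log2 ratio of the paired genes, (TPM + 1) over (TPM + 1), in each library, in TPM as deposited. Multiplying a library by 1 factor changes this ratio only through the added 1, which weighs most for low genes such as RPN12B. The 9 libraries of the later 3 stages (32-cell, globular, heart) were compared with the 9 of the earlier 3 (2/4-cell, 8-cell, 16-cell) by an exact permutation test, two-sided, over 18 pairs. The ratio differed in 6 pairs at an adjusted p under 0.05, 2 of the 9 pairs in which both genes are members and 4 of the 9 with 1 member. In none of the 18 pairs were the later and earlier libraries fully separate. Libraries of a stage are more alike than libraries of different stages, so these p-values are too small, and reads of near-identical paralogues may be divided between them with error in the quantification.

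The alpha5 pair shifted towards PAE1. Through the stages PAE1 had 213, 174 and 172 TPM in the 2/4-cell libraries, 289.7, 212 and 258 in the 8-cell, 336, 248 and 239 in the 16-cell, 285, 237 and 304 in the 32-cell, 357, 392 and 371 in the globular, and 341, 331 and 356 in the heart libraries. Its paralogue PAE2 had 178, 192 and 193 TPM in the 2/4-cell libraries, 233, 218 and 256 in the 8-cell, 272, 249 and 258 in the 16-cell, 235, 198 and 243 in the 32-cell, 226, 219 and 235 in the globular, and 244, 236 and 249.9 in the heart libraries. After the 2/4-cell stage PAE2 held between 198 and 272 TPM, with its highest library at 16-cell, while PAE1 had its highest stage means at globular and heart, although 16-cell replicate 1 stood above heart replicate 2.

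PAE1 made up 49.7 ± 4.20% of the pair in 2/4-cell libraries, 51.6 ± 3.31% in 8-cell, 51.1 ± 3.70% in 16-cell, 54.9 ± 0.533% in 32-cell, 62.2 ± 1.69% in globular and 58.4 ± 0.279% in heart libraries (SD, n = 3 each). The mean log2 ratio of PAE1 to PAE2 was 0.50 ± 0.20 in later and 0.05 ± 0.19 in earlier libraries (SD, n = 9 each), a difference of 0.45 (exact permutation p = 0.000535, adjusted p = 0.00481). Of the 9 later libraries, 7 lay above all earlier ones.

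The beta2 pair reversed its order between the 8-cell and globular stages. At 2/4-cell the order was mixed. PBB1 had 140.5, 126 and 118 TPM there and PBB2 130.1, 133 and 163 TPM, so that PBB1 was ahead in replicate 1. In the 8-cell libraries PBB1 had 172, 126 and 149.7 TPM and PBB2 203, 197 and 211 TPM, so that PBB2 was ahead in all 3. At globular PBB1 had 158, 195 and 198 TPM and PBB2 133, 139.6 and 152 TPM, so that PBB1 was ahead in all 3. The mean log2 ratio of PBB1 to PBB2 was -0.14 in 2/4-cell libraries, -0.46 in 8-cell, -0.39 in 16-cell, -0.23 in 32-cell, 0.37 in globular and 0.21 in heart libraries.

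Between later and earlier libraries the PBB1 to PBB2 ratio was 0.12 ± 0.29 and -0.33 ± 0.25 (SD, n = 9 each), a difference of 0.45 (exact permutation p = 0.00399, adjusted p = 0.0144). In 5 of the 9 later libraries it was above all earlier ones. The shift lay at the globular and heart stages, since the 32-cell libraries resembled the earlier ones.

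**Figure D4:**
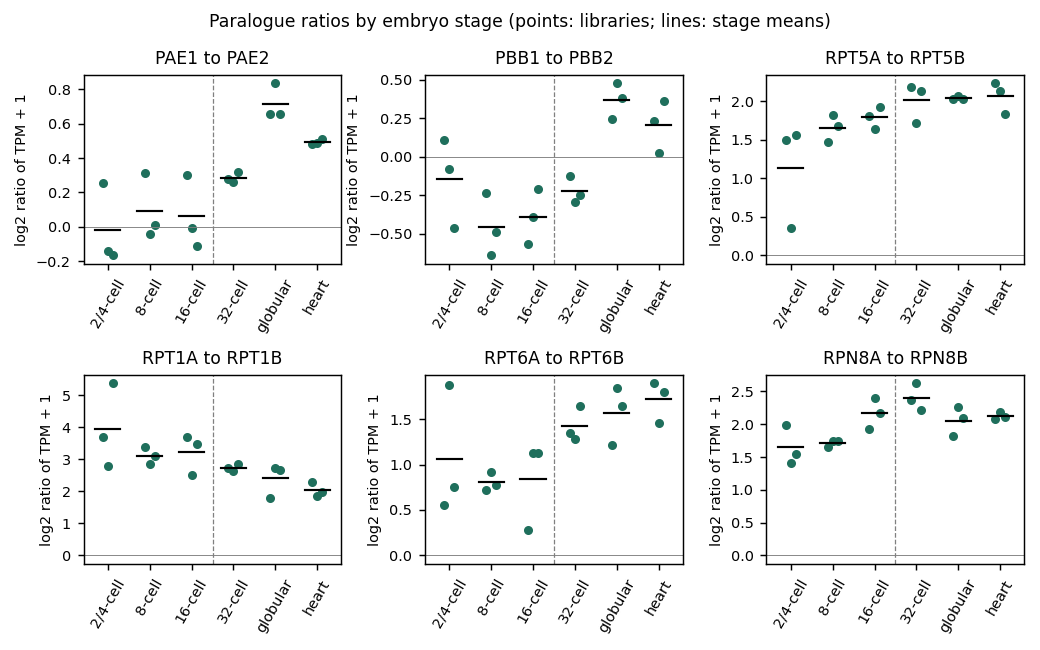
Log2 ratio of paralogue levels, (TPM + 1) over (TPM + 1), in each library (points; lines are stage means) for the 6 pairs that passed; the dashed line parts the earlier 3 stages on the left from the later 3 on the right, and 0 means equal levels. PAE1 to PAE2 averages 0.72 at globular, the stage mean of PBB1 to PBB2 crosses 0 between 32-cell and globular, and RPT1A to RPT1B averages 3.96 at 2/4-cell and 2.05 at heart.

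Of the ATPase pairs, 3 shifted. RPT1A (AT1G53750) outweighed RPT1B (AT1G53780) in all 18 libraries, but less so later. RPT1B, which lies 2 annotated genes away from RPT1A, had 15.6, 18.9 and 3.43 TPM in the 2/4-cell libraries, 23.8, 18.9 and 21.4 in the 8-cell, 18.7, 25.2 and 10.0 in the 16-cell, 29.9, 24.9 and 25.3 in the 32-cell, 58.7, 40.3 and 37.4 in the globular, and 49.8, 57.5 and 47.2 in the heart libraries. All globular and heart libraries lay above all earlier ones. RPT1A averaged 217 ± 30.8 TPM at heart and 179 ± 39.8 TPM at 2/4-cell (SD, n = 3 each). The mean log2 ratio was 2.40 ± 0.42 in later and 3.44 ± 0.84 in earlier libraries (SD, n = 9 each), a difference of -1.04 (exact permutation p = 0.00119, adjusted p = 0.00716), and the RPT1B share of the pair grew as the RPT1A share fell to 80.7 ± 2.56% at heart, against 93.1 ± 5.12% at 2/4-cell (SD, n = 3 each). By this ratio 4 of the 9 later libraries lay below all earlier ones.

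RPT5A (AT3G05530) and RPT5B (AT1G09100) parted further. RPT5B had 44.4, 41.4 and 48.1 TPM at heart, against 76.1, 65.2 and 62.9 TPM at 2/4-cell, with no overlap. RPT5A had 213, 186 and 174 TPM at heart, against 217, 83.5 and 188 TPM at 2/4-cell, with 2/4-cell replicate 2 far below the other libraries. The mean log2 ratio of RPT5A to RPT5B was 2.04 ± 0.17 in later and 1.53 ± 0.47 in earlier libraries (SD, n = 9 each), a difference of 0.51 (exact permutation p = 0.000452, adjusted p = 0.00481). Here 7 of the 9 later libraries lay above all earlier ones.

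RPT6A gained on RPT6B (AT5G20000), its direct neighbour in the annotation. RPT6B had 81.7, 75.6 and 65.8 TPM at heart, against 134, 28.2 and 77.4 TPM at 2/4-cell. Its heart libraries lay inside the wide 2/4-cell range. The mean log2 ratio of RPT6A to RPT6B was 1.57 ± 0.25 in later and 0.90 ± 0.45 in earlier libraries (SD, n = 9 each), a difference of 0.67 (exact permutation p = 0.00189, adjusted p = 0.00852). Only 1 of the 9 later libraries lay above all earlier ones, where the highest earlier ratio was 1.87.

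The lid pair RPN8A and RPN8B (AT3G11270) was the weakest of the 6. RPN8B had 54.4, 44.9 and 45.2 TPM at heart, against 37.9, 48.7 and 50.4 TPM at 2/4-cell, so that its groups overlapped. The mean log2 ratio was 2.19 ± 0.22 in later and 1.84 ± 0.31 in earlier libraries (SD, n = 9 each), a difference of 0.35 (exact permutation p = 0.0157, adjusted p = 0.047). Only 1 of the 9 later libraries lay above all earlier ones. The call was lost in 14 of the 18 fits that left out 1 library, with an adjusted p of up to 0.0942. The other 5 pairs kept theirs in all 18.

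The other 12 pairs did not pass in the test as reported. Without 16-cell replicate 2, PAC1 to PAC2 (exact permutation, adjusted p = 0.00889) and RPN2A to RPN2B (adjusted p = 0.00426) passed, and both also passed without the 2/4-cell and 16-cell libraries. PAA1 to PAA2 passed without 2/4-cell replicate 2 (exact permutation, adjusted p = 0.0297). Among the 12, PAC1 outweighed PAC2 (AT4G15165), with 91.9% of the alpha3 pair on average, and RPN12A made up 99.4% of its pair with RPN12B (AT5G42040), which averaged 1.75 TPM. The share of the first paralogue averaged 76.6% for PAA1 over PAA2, 79.0% for PAF1 over PAF2, 65.8% for PBD1 over PBD2 and 67.1% for PBE1 over PBE2. PAB1 and PAB2 were close to equal, with 45.9% for PAB1. Differences in the log2 ratio between later and earlier libraries in these 12 pairs ran from -0.22 for PBD1 to PBD2 to 0.28 for RPN12A to RPN12B, and the lowest exact permutation p among them was 0.0385 (adjusted p = 0.0989), for PAC1 to PAC2.

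Libraries of one stage differed more in the regulatory particle than in the core. The SD of log2(TPM + 1) within stages had a median of 0.30 over the 11 regulatory genes, with values of 0.15 to 0.54, and of 0.15 over the 23 core genes, with values of 0.09 to 0.39. The 2 sets also differ in length. The longest annotated mRNA measured 1334 to 3517 nucleotides for the regulatory genes and 872 to 1469 for the core genes, and over the 34 genes the spread and the log2 length had a Pearson r of 0.67, a description across genes that share the same libraries.

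The same spread can be read library by library. In 16-cell replicate 1, 33 of 34 members were above their stage mean, with a median deviation of 0.35 in log2 for the regulatory particle and 0.20 for the core. In 16-cell replicate 3, 32 were below it, by a median of -0.36 for the regulatory particle and -0.13 for the core. Within a library the deviation tracked the length of the gene in globular replicate 2 (Pearson r = 0.83 over 34 genes) and heart replicate 1 (r = 0.82), and in the opposite direction in globular replicate 1 (r = -0.73). For each gene the deviations of a stage's libraries sum to 0, so opposite directions within a stage are built in and are no separate observation. Heart replicate 1 was also the heart library with the highest RPT6A, RPT2A and RPN10. The part of transcript length in the changes of the regulatory genes was not tested.

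**Figure D5:**
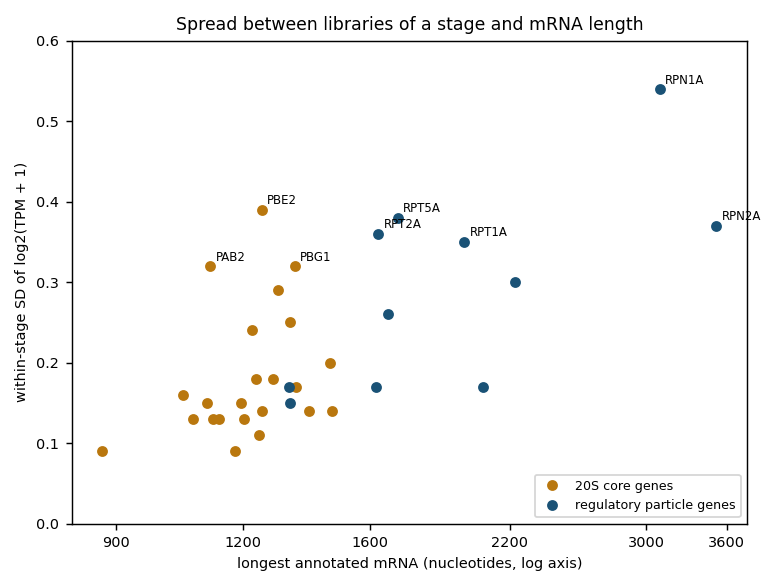
Spread of each subunit gene between libraries of a stage (vertical axis, SD of log2(TPM + 1)) against the longest annotated mRNA of the gene (horizontal axis, nucleotides, log scale), for 23 core genes (orange) and 11 regulatory particle genes (blue). RPN1A, at 0.54, has the widest spread. The regulatory genes have the higher median spread (0.30 against 0.15) and median length (1706 against 1237 nucleotides). RPT3, RPN8A and RPN11, at 0.17, and RPN12A, at 0.15, lie among the core genes in spread.

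The 22 other subunit genes were tested in the same fit. In heart against 2/4-cell 1 was higher and 1 lower, where 34.5% of all genes were higher and 12.3% lower. The median log2 change of the 22 was 0.29. RPT1B averaged 51.5 ± 5.37 TPM at heart and 12.7 ± 8.15 TPM at 2/4-cell (SD, n = 3 each), a 4.61-fold change (limma adjusted p = 0.000267), and the call was kept under each alternative run. RPT5B averaged 44.7 ± 3.37 TPM at heart and 68.1 ± 7.02 TPM at 2/4-cell, with a log2 change of -0.60 (limma adjusted p = 0.0298), a call lost without 2/4-cell replicate 1, heart replicate 1 or heart replicate 2 (adjusted p of up to 0.0885). The count of 2 was 6 under median-ratio scaling, 1 of them higher, where 20.3% of all genes were higher and 20.7% lower. Without single libraries, where 37.6% to 49.6% of all genes were called, it was 7 without 2/4-cell replicate 1, all higher, 4 without 16-cell replicate 3, and 1 without heart replicate 1 or 2. It was 4 with the replicate block, 3 of them higher, where 35.1% of all genes were higher.

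Of 6 genes for assembly and regulation of the proteasome, 2 were lower and 0 higher. Among all tested genes 12.3% were lower and 34.5% higher in this comparison, heart against 2/4-cell. UMP1B (AT5G38650), whose yeast counterpart is a chaperone for core assembly, averaged 58.8 ± 15.3 TPM at heart and 97.6 ± 12.2 TPM at 2/4-cell (SD, n = 3 each), a log2 change of -0.74 (limma adjusted p = 0.00804). The more abundant UMP1A (AT1G67250) was not called, with 224 ± 30.3 TPM at heart and 210.4 ± 26.6 TPM at 2/4-cell (SD, n = 3 each). PTRE1 (AT3G53970), a proteasome regulator, had a log2 change of -0.46 (limma adjusted p = 0.0492). The UMP1B call was lost without heart replicate 1 and with library weights (adjusted p of up to 0.0576). The PTRE1 call was lost in 13 of 18 fits that left out 1 library (adjusted p of up to 0.2). All heart libraries lay below all 2/4-cell libraries for UMP1B and for PTRE1.

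Of 13 genes that activate ubiquitin, remove it or deliver tagged substrates, 2 were higher and 0 lower. Among all tested genes 34.5% were higher and 12.3% lower in this comparison, heart against 2/4-cell. The 2 were UBA2 (AT5G06460), a ubiquitin-activating enzyme, with a log2 change of 0.68 (limma adjusted p = 0.0404), and UCH2 (AT1G65650), a deubiquitinating enzyme, with 0.63 (limma adjusted p = 0.0438). Neither call was firm. Under median-ratio scaling the changes were 0.21 and 0.15 and did not pass, and they were lost in 7 and 12 of the 18 fits that left out 1 library. Of the 10 genes of the COP9 signalosome, a complex built like the lid, 0 passed in limma, 2 had an unadjusted p under 0.05, and the median log2 change was -0.02. Under median-ratio scaling 5 of the 10 passed as lower at heart, where 20.7% of all genes were lower, and under quantile normalization 2 of the 10, near the 18.3% of all genes.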

How the data were processed

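The authors deposited 1 table of TPM per gene for 18 libraries, made, per the submitters' processing notes, with Trim Galore 0.6.6, kallisto 0.44.0 and TAIR10. The step from transcripts to genes is not given in the sources used here. TPM keep no read depth, so no counting interval or detection limit was derived. Nothing states that replicates came from separate plants, so p-values measure the spread between these samples.

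The 18338 genes that reached 1 TPM in at least 3 libraries were fitted with limma 3.58.1 in R 4.3.3 on log2(TPM + 1), with 1 mean per stage, an intensity trend and two-sided tests. Fold changes are on the scale of TPM + 1, which understates those of low genes. p-values were adjusted by Benjamini-Hochberg over all tested genes within a comparison, and those of paralogue ratios over 18 pairs. The fit was tested on simulated data. The members and lists were chosen with earlier results of these data known. Named members are up to 8 with the largest and 4 with the smallest change in heart against 2/4-cell, the genes of up to 6 pairs that passed, and the highest and lowest member; from other lists, up to 4 called genes and the paralogues of members. RPN1A, PBC1, PAF2 and the other members named were added after their values were seen. Alternatives were pseudocounts, filters, scalings, library weights, a replicate block, fits of only the compared stages and each library left out. Symbols come from the gene lists, and all 105 listed identifiers were matched in the TAIR10.1 annotation, used only for lengths and for which genes are neighbours; no coordinates or sequences are given.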

Additional observations from a re-analysis of the deposited data

How the results depend on the processing

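Counts of called members moved as follows, each with the share of all tested genes called under the same setting. In 8-cell against 2/4-cell the 3 calls (8.77% of all genes) became 5 with no filter (5.34%), 8 with quantile normalization (10.3%), 0 with library weights (3.23%), 0 with only the compared stages fitted (0.365%), and 1 to 4 without single libraries (5.21% to 12.2%). In 32-cell against 16-cell the count of 0 became 3, all lower, with median-ratio scaling (4.85%), 1 with library weights (8.50%) and 0 to 1 without single libraries (2.90% to 7.87%), with 1 without 2/4-cell replicate 3. In globular against 32-cell it became 5 with library weights (18.9%) and 2 with only the compared stages (8.19%), and in heart against globular 1 with library weights (10.9%). In heart against 2/4-cell the 12 calls, all higher (46.9%), became 6 with median-ratio scaling, of which 1 was higher and 5 lower (20.3% of all genes higher and 20.7% lower). They became 6, all higher, with only the compared stages (35.2%), 7 to 15 without single libraries (37.6% to 49.6%), and 2 for heart against 8-cell in its place (35.9%), an alternative chosen after seeing the data. Without 2/4-cell replicate 3, 16-cell replicate 1 or 16-cell replicate 3, 1 of the called members, PBC1, was lower. The F test gave 17 with median-ratio scaling (43.7%), 14 with quantile normalization (41.3%), 4 without the 2/4-cell libraries (45.2%) and 4 to 10 without single libraries (42.0% to 52.9%), in place of 8 (49.1%). The 6 paralogue pairs became 5 to 8 without single libraries and 8 without the 2/4-cell and 16-cell libraries. Under median-ratio scaling the log2 changes in heart against 2/4-cell turned to -0.05 for PAA1, -0.07 for PAD2, -0.11 for PAE2, -0.02 for PBB1, -0.37 for PBB2, -0.13 for PBE1 and -0.44 for PBF1. Only the scaling of the libraries differs between these values and the reported ones; the cause of the other moves was not tested. The labels do not say what libraries of the same replicate number share. Deviations of same-numbered libraries had r of -0.14 to 0.21 over 45 pairs (median 0.03), of which 9 were over 0.1. Those of differently numbered libraries had r of -0.24 to 0.26 over 90 pairs (median -0.02), of which 7 were over 0.1. With the replicate block 12 members were called in heart against 2/4-cell (47.7%) and 3 in 8-cell against 2/4-cell (8.67%), as many as without it, and it ended the call of PTRE1. Depth is unknown and sets no limit that could be computed.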
